A study of Homo sapiens with 12 samples.

Results

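The difference between the copper response of ATP7B knockout (KO) cells and that of wild type cells was measured in all 12 libraries of the series, for 11051 tested genes of the 47634 listed. For each gene the log2 change with copper in wild type cells was subtracted from the log2 change with copper in KO cells, in a single model of 4 groups. A positive value means that the ratio of copper to untreated was higher in KO cells. A negative value means that it was lower. A filter on low counts left the 11051 genes, and no difference between groups was used to choose them.

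All libraries came from Hep G2, a human hepatocellular carcinoma line that keeps many functions of hepatocytes. The 4 groups were wild type cells left untreated, wild type cells given copper for 24 h, ATP7B KO cells left untreated and ATP7B KO cells given copper for 24 h. Each held 3 libraries labelled as biological replicates. The labels name a single KO line, give no copper dose and do not say how or where ATP7B was edited, so the KO effect and any other difference between the lines cannot be told apart. Nothing in the labels says that replicates came from separate cultures, and p-values then measure the spread between these libraries. Levels are given in CPM, counts scaled to a common library size, and changes are on the log2 scale of the fit.

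ATP7B is the ATPase that loads copper onto secreted proteins and exports it from hepatocytes into bile, and its loss causes Wilson disease, in which copper builds up in the liver. Copper that enters the cytosol is bound by glutathione and by metallothioneins, whose genes are switched on by the metal sensor MTF1. Excess copper also oxidises and unfolds proteins, and heat shock factor HSF1 and the antioxidant factor NRF2 raise chaperone and detoxification genes in such cells.

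Totals ran from 976658 counts in KO untreated replicate 2 to 3829151 in wild type untreated replicate 2, and 3 counts correspond to 3.07 CPM in the former and 0.783 CPM in the latter. A set of 3 libraries stood apart from the others. On the first principal component, which held 44.2% of the variance, KO untreated replicates 1 and 2 lay at 111 and 120.4, wild type copper replicate 1 at 23.9 and the other 9 libraries below 0. KO untreated replicate 3 correlated with replicates 1 and 2 at only 0.824 and 0.798 over genes, where the replicates of the other groups reached 0.910 to 0.988. Cytosolic ribosomal protein genes summed to 63980 and 54410 CPM in KO untreated replicates 1 and 2 and to between 100900 and 146400 CPM in the other 10 libraries. Mitochondrially encoded genes made up 2.97% to 3.80% of the reads of untreated wild type replicates, against 5.82% to 9.46% elsewhere. The part of these shifts in the results below was not tested, and counts and the values that moved most are given without those libraries as well.

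ATP7B stood at 12.7, 13.1 and 12.3 CPM in untreated wild type replicates 1 to 3, 5.34, 3.92 and 3.87 CPM in copper-treated wild type, 9.01, 2.05 and 11.6 CPM in untreated KO and 3.92, 4.19 and 6.77 CPM in copper-treated KO replicates. Untreated KO libraries were below all untreated wild type libraries, the lines overlapped in copper, and ATP7B was not called in the difference (0.90 ± 0.59 SE, adjusted p = 0.284 by edgeR's quasi-likelihood test with Benjamini-Hochberg adjustment, the test meant throughout). Counts come from near the 3′ end of transcripts and the labels do not place the edit, so the level of ATP7B mRNA does not check the labels. All 12 hepatocyte markers examined, among them ALB, APOA1, TTR and HNF4A, were detected. They summed to 29250 to 29500 CPM in wild type untreated, 13900 to 14800 CPM in wild type copper, 10910 to 16530 CPM in KO untreated and 6927 to 6946 CPM in KO copper. Of 15 matched markers of blood, endothelial and stromal cells, CD3E and HBB were at 0 in every library. LYZ, the lysozyme gene, was the most abundant and ran from 178 to 1454 CPM. The rest of that list summed to 41.0 to 137.6 CPM.

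A difference between the copper effects in KO and wild type cells was called at 545 of the 11051 tested genes (4.93%). The difference was positive for 139 genes (1.26% of all tested) and negative for 406 (3.67%). Positive differences ran from 0.83 to 7.26 on the log2 scale with a median of 1.95, and negative ones from -0.94 to -6.00 with a median of -2.12. Over all tested genes the median was 0.02 and the median SE 0.494. The smallest adjusted p was 0.000834, and 3606 genes (32.6%) had an unadjusted p under 0.05. For comparison, the same fit called a copper effect at 1648 genes in wild type cells (14.9%) and at 3721 genes in KO cells (33.7%).

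The 545 genes were sorted by the signs of the estimated copper effects. The most common pattern, with 276 genes, was an estimate below 0 in KO cells and above 0 in wild type cells. Both estimates were below 0 and the KO one was further from 0 at 120 genes. The KO estimate was above 0 and the wild type one below 0 at 84 genes. Both were above 0 and the KO one larger at 51 genes. Estimates of the same sign that were nearer 0 in KO cells were few, with 10 genes whose estimates were both above 0 and 4 whose estimates were both below 0. The copper effect itself was called in KO cells alone for 382 of the 545 genes, in wild type cells alone for 82, in both for 70 and in neither for 11. Signs that differ therefore mark opposite responses only where both effects were called, which held for 11 of the 84 and 22 of the 276 genes. At another 22 of the 84 and 48 of the 276 the wild type effect alone was called. An absent or weaker KO response cannot be told apart from an opposite one at those genes.

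**Figure D1:**
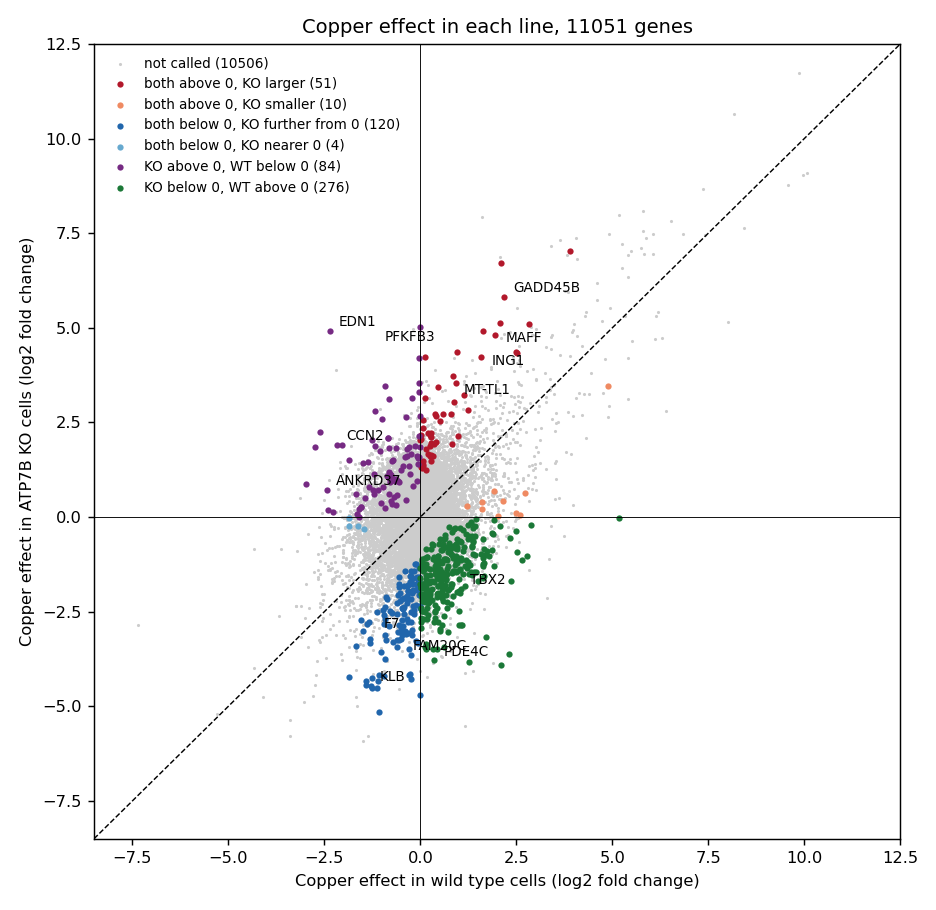
Copper effect in wild type cells (x axis) against copper effect in ATP7B KO cells (y axis), each a log2 fold change, for 11051 genes; grey points were not called in the difference, coloured points are the 545 called genes by the signs of the estimates, and the dashed line marks equal effects. Named points are the 13 genes called with each library left out in turn, and 276 genes lie to the right of 0 on the x axis and below 0 on the y axis.

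The difference of copper effects is also the genotype difference in copper minus the genotype difference without copper. Untreated KO and wild type cells differed by the test at 380 of the 545 genes, against 31.9% of all tested genes, and the lines differed in copper at 199, against 13.8% of all. These levels enter the difference itself, so the counts only describe where it arose. Of the 276 genes with a KO estimate below 0 and a wild type estimate above 0, all 3 KO untreated libraries exceeded all 3 wild type untreated ones at 215, against 25.7% of all tested genes. KO untreated replicate 3, the one nearest to the other groups, exceeded them at 217. The share over all tested genes was not computed for this replicate alone, so that count cannot be set against a background. In copper the KO libraries were all below the wild type ones at 159 of the 276 (20% of all tested genes). Of the 84 genes with the reverse signs, all KO untreated libraries were below all wild type untreated ones at 63 (19.1% of all tested genes), and the KO copper libraries were above at 53 (26.4%).

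The size of the differences depended on KO untreated replicates 1 and 2. Sample quality weights by limma voom were 0.782, 0.664 and 0.0657 for KO untreated replicates 1, 2 and 3. Which of these libraries represent the group was not tested. No sizes are given here without replicate 3, only without replicates 1 and 2. Without them, in a 10-library fit, the group rests on replicate 3, assumed to vary like the others, and the sign stayed the same at all 545 genes. The median of the 406 negative differences went from -2.12 to -1.21, and 394 of them were nearer 0. The median of the 139 positive ones went from 1.95 to 1.52, and 126 were nearer 0. That fit called 102 genes, of which 88 were among the 545. The 10-library fit called 0.31% of its tested genes positive and 0.544% negative. Without all 3 libraries that stood apart, in a 9-library fit, 1050 genes (8.78%) were called (452 positive, 3.78%, and 598 negative, 5.0%), 414 of them among the 545, and the medians were 1.41 and -1.02.

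Single libraries moved the count of calls. Without any one of wild type untreated replicates 1, 2 and 3, wild type copper replicates 1 and 2, KO untreated replicates 1 and 2 or the 3 KO copper replicates, between 13 and 71 genes were called. The count was 620 without wild type copper replicate 3 and 5882 without KO untreated replicate 3. A set of 13 genes was called in all 12 of these fits, and they were also called without the 3 libraries that stood apart and without KO untreated replicates 1 and 2. They are ANKRD37, CCN2, EDN1, GADD45B, ING1, MAFF, MT-TL1 and PFKFB3 with positive values and F7, FAM20C, KLB, PDE4C and TBX2 with negative values. The values of the first 8 in the 10-library fit were 3.52, 3.56, 6.50, 3.14, 2.37, 2.69, 2.36 and 2.85 in that order, and those of the other 5 were -2.56, -2.29, -2.81, -3.48 and -2.83. In the 9-library fit they were 3.31, 3.31, 6.46, 2.97, 2.42, 2.64, 2.3 and 2.90, and -2.40, -2.21, -2.73, -3.40 and -2.78. Each other call named below ended without at least 1 library. Of the 97 called genes that were chosen by rule, 37 were called in the 10-library fit and 86 in the 9-library fit. Their values were smaller by over 1.5 times at 33 and 44 genes.

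**Figure D2:**
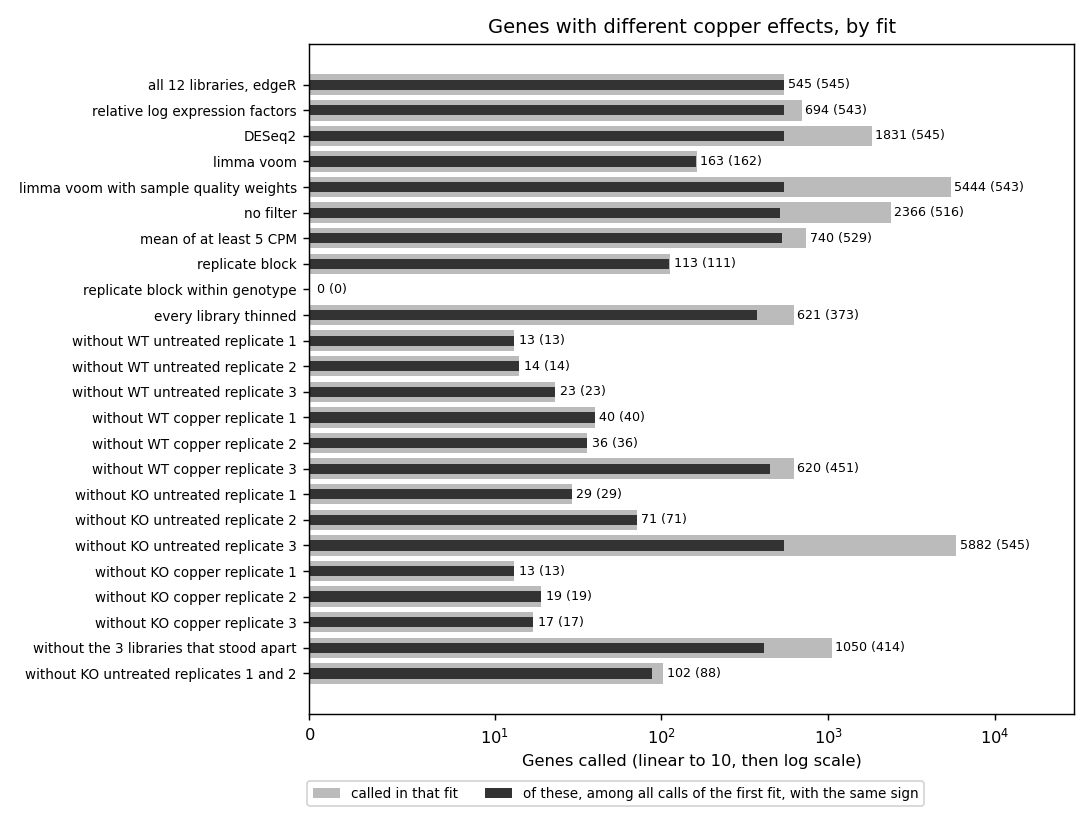
Number of genes called in the difference of copper effects (x axis, linear to 10 and then logarithmic) in each fit (y axis); grey bars are all calls, dark bars those among the 545 with the same sign, and both numbers stand beside each bar. Of the 12 fits that leave out a library, 10 call 13 to 71 genes, and leaving out KO untreated replicate 3 gives 5882.

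Among genes with opposite responses, CCN2 and EDN1 stood out by their adjusted p. CCN2 encodes connective tissue growth factor, a secreted matricellular protein and a known target of the YAP and TAZ coactivators with TEAD factors. CCN2 stood at 1153, 1182 and 1162 CPM in untreated wild type replicates 1 to 3, 157, 296 and 314 CPM in copper-treated wild type, 45.7, 78.8 and 113 CPM in untreated KO and 301, 254 and 260.0 CPM in copper-treated KO replicates. Untreated wild type cells were far above the other 3 groups, untreated KO cells were lowest, and in copper the lines overlapped. Copper lowered CCN2 in wild type cells (-2.17 ± 0.31 SE, adjusted p = 0.000961) and raised it in KO cells (1.90 ± 0.31 SE, adjusted p = 0.000999), a difference of 4.06 ± 0.44 SE, adjusted p = 0.00262.

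EDN1 encodes the vasoconstrictor peptide endothelin-1. EDN1 stood at 14.8, 16.2 and 15.7 CPM in untreated wild type replicates 1 to 3, 2.67, 2.61 and 3.49 CPM in copper-treated wild type, 0, 0 and 0.610 CPM in untreated KO and 10.3, 7.95 and 13.5 CPM in copper-treated KO replicates. The 4 groups did not overlap, and the untreated KO libraries held 2 counts in all. EDN1 fell in wild type cells (-2.36 ± 0.35 SE, adjusted p = 0.00118). In KO cells its pooled CPM was 30.3 times higher in copper than untreated (exact 95% counting interval 8.13 to 254). The fitted difference was 7.26 ± 0.65 SE, adjusted p = 0.000834, and its size depends on how so few counts are handled.

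ANKRD37, an ankyrin repeat gene known as a hypoxia target, completes the 3 genes with a KO estimate above 0 and a wild type estimate below 0 that were called with each library left out. ANKRD37 stood at 72.8, 74.4 and 60.4 CPM in untreated wild type replicates 1 to 3, 8.01, 16.6 and 13.2 CPM in copper-treated wild type, 9.01, 11.3 and 6.41 CPM in untreated KO and 9.97, 15.9 and 12.3 CPM in copper-treated KO replicates. Untreated wild type cells were above all other libraries, and the other 3 groups overlapped. ANKRD37 fell in wild type cells (-2.42 ± 0.29 SE, adjusted p = 0.000347), the KO estimate was 0.71 ± 0.33 SE, adjusted p = 0.115, and the difference was 3.13 ± 0.44 SE, adjusted p = 0.00848.

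The RefSeq promoters of these 3 genes, with that of ANKRD1 as a further YAP target that is described below, show the letters just upstream of genes that moved differently in the lines. Each run is the 250 bases before the gene start, 5′ to 3′ on the gene's strand, build GRCh38.p14. Capitals mark GGAATG, the core of the TEAD motif, in CCN2 and ANKRD1, and ACGTG, the core of the hypoxia response element, in EDN1 and ANKRD37, on either strand. CCN2 lies at chr6:131951373-131951622 (minus strand), ANKRD1 at chr10:90921088-90921337 (minus strand), EDN1 at chr6:12287769-12288018 (plus strand) and ANKRD37 at chr4:185396591-185396840 (plus strand).
CCN2: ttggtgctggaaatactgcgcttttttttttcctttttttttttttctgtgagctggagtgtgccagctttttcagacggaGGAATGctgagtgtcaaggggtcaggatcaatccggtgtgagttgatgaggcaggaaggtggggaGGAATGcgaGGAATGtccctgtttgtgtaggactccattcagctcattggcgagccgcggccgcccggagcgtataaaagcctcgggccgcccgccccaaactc
ANKRD1: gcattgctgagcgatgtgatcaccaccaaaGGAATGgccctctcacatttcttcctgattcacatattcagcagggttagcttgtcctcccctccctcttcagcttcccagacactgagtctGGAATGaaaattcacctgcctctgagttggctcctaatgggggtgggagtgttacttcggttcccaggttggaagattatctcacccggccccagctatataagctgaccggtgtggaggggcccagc
EDN1: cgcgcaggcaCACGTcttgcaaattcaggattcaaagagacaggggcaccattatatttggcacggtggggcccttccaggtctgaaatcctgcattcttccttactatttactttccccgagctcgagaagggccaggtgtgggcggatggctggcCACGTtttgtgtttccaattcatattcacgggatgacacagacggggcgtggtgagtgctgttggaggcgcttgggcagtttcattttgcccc
ANKRD37: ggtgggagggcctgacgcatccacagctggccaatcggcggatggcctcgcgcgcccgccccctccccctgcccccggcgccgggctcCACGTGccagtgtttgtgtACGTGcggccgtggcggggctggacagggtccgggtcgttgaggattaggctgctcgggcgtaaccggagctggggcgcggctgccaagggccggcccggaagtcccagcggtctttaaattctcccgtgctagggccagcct
CCN2 held GGAATG 3 times and ANKRD1 2 times. EDN1 held ACGTG 2 times, and ANKRD37 3 times, of which one pair overlaps as CACGTG read on both strands. In ANKRD1 the second GGAATG shares a base with a match to the heat shock element letters GAANNTTC. GGAATG was in 11.02% of the 118 promoters of positive genes, 11.2% of the 304 of negative genes and 9.25% of the 8581 of tested genes, and in 11.9% of all 27305 promoters. ACGTG was in 30.5%, 20.1%, 24.3% and 18.7% of the same sets. The AP-1 letters TGANTCA were in 5.93%, 2.63%, 3.57% and 6.60%. These are matches of letters in a fixed window and not binding sites, and 422 of the 545 genes had a promoter in the table.

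Of the 11 genes of this pattern with both copper effects called, CCN2, EDN1, CD9, SLC16A6 and PIM1 belong to the sets chosen by rule. SLC16A6, a monocarboxylate transporter family member, had a difference of 2.92 ± 0.43 SE, adjusted p = 0.0109. SLC16A6 stood at 9.75, 8.10 and 8.98 CPM in untreated wild type replicates 1 to 3, 2.67, 2.61 and 3.87 CPM in copper-treated wild type, 4.85, 5.12 and 5.19 CPM in untreated KO and 12.8, 14.7 and 9.95 CPM in copper-treated KO replicates. Wild type copper libraries were the lowest and KO copper libraries the highest, with no overlap of the 4 groups. PIM1, a growth-promoting kinase, had a difference of 3.94 ± 0.90 SE, adjusted p = 0.0392, and KO untreated replicate 3 at 29.6 CPM was well above replicates 1 and 2 at 2.08 and 4.10 CPM. CD9, a tetraspanin membrane protein, had a difference of 4.88 ± 0.85 SE, adjusted p = 0.0228 at levels of 0 to 22.1 CPM. Others of the 11, chosen after their values were seen, are SLC16A1, the lactate transporter MCT1 (1.41 ± 0.30 SE, adjusted p = 0.0343), BHLHE40, a hypoxia-responsive repressor (1.99 ± 0.42 SE, adjusted p = 0.0343), and PPP1R3C, a glycogen-targeting phosphatase subunit (3.38 ± 0.71 SE, adjusted p = 0.0343). The 10-library fit put PIM1 at 2.80, SLC16A1 at 1.01 and BHLHE40 at 1.93, not called, and SLC16A6 at 2.88, CD9 at 4.40 and PPP1R3C at 2.99, called.

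More genes of this pattern had a called effect in KO cells and a wild type estimate near or below 0. CCN1, the relative of CCN2 and also a YAP target, had a difference of 5.03 ± 1.19 SE, adjusted p = 0.0406. CCN1 stood at 48.2, 53.01 and 30.0 CPM in untreated wild type replicates 1 to 3, 6.40, 20.5 and 99.9 CPM in copper-treated wild type, 1.39, 0 and 10.1 CPM in untreated KO and 191, 129 and 128 CPM in copper-treated KO replicates. Its wild type copper libraries spread from 6.40 to 99.9 CPM and overlapped the untreated ones, while KO copper libraries were above all others. The phosphatase gene DUSP1, which switches off MAP kinases (3.58 ± 0.81 SE, adjusted p = 0.0387), the chemokine gene CCL20 (3.93 ± 0.84 SE, adjusted p = 0.0343), the cyclin gene CCNG2 (4.39 ± 0.93 SE, adjusted p = 0.0343) and ATP6V1G1, a subunit of the proton pump of lysosomes (2.13 ± 0.56 SE, adjusted p = 0.0492), followed. Without KO untreated replicates 1 and 2 they stood at 2.75, 3.04, 3.52 and 1.27, and CCN1 at 4.01, none of them called. Genes with a called fall in wild type cells alone included FRMD3, which encodes a FERM domain protein (2.60 ± 0.40 SE, adjusted p = 0.0129), the glucose transporters SLC2A3 (1.73 ± 0.31 SE, adjusted p = 0.0230) and SLC2A1 (1.94 ± 0.41 SE, adjusted p = 0.0343), and the mitotic kinesin CENPE (1.81 ± 0.32 SE, adjusted p = 0.0233).

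**Figure D3:**
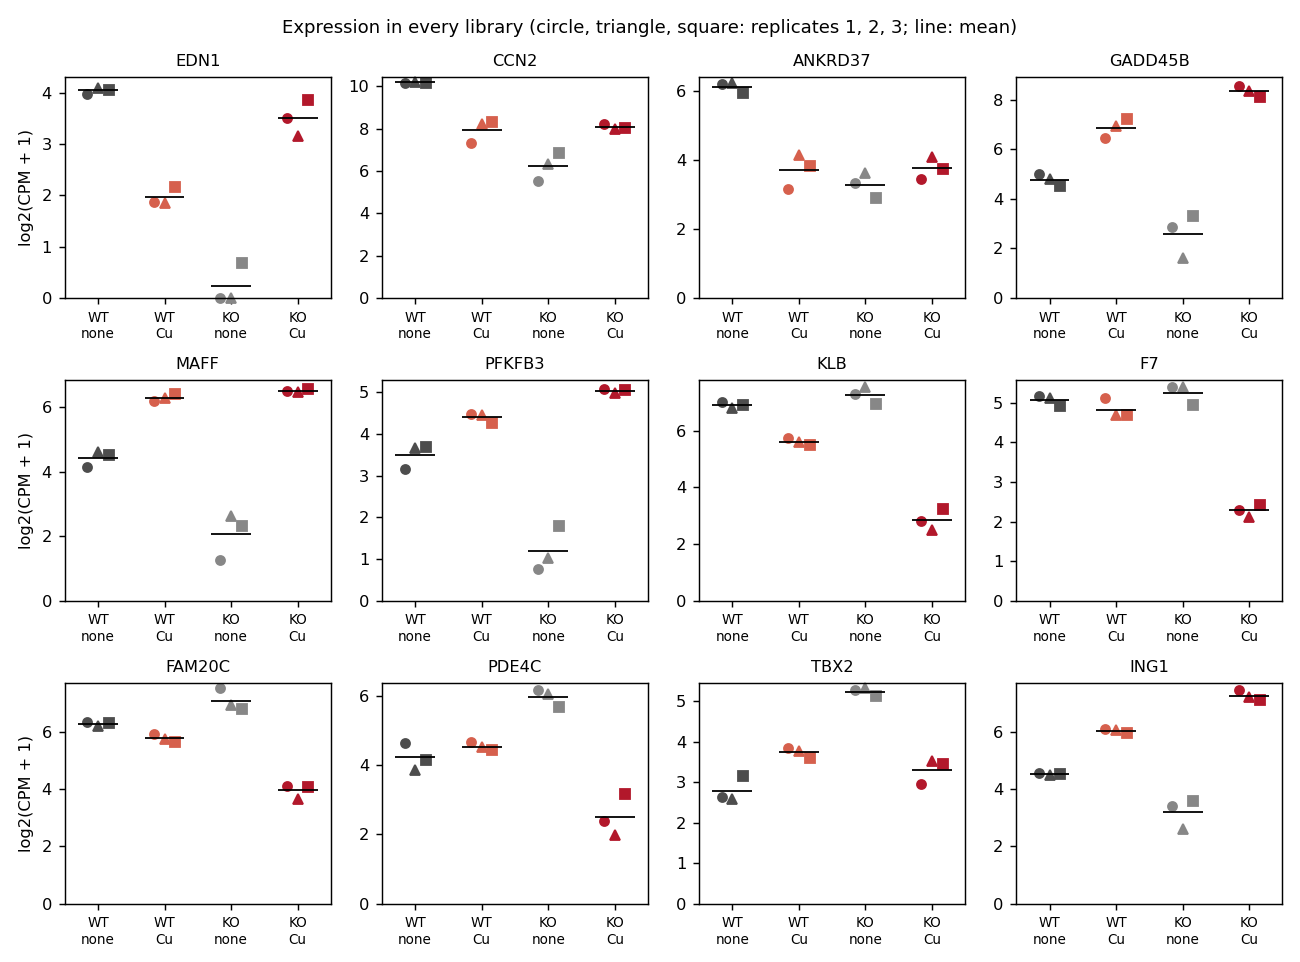
Expression as log2(CPM + 1) (y axis) of 12 of the 13 genes called with each library left out, in each library of the 4 groups (x axis; Cu, copper); circles, triangles and squares are replicates 1, 2 and 3, and lines are group means of the plotted values. CCN2 and EDN1 go down from untreated to copper in wild type cells and up in KO cells, while KLB, F7 and FAM20C are lowest in KO copper.

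At 51 genes copper raised KO cells more than wild type cells, with both estimates above 0. Both effects were called at 16 of them and the KO effect alone at 35. GADD45B, a stress and growth-arrest gene, rose in both lines. GADD45B stood at 30.6, 26.6 and 22.2 CPM in untreated wild type replicates 1 to 3, 85.9, 121 and 149.5 CPM in copper-treated wild type, 6.24, 2.05 and 8.85 CPM in untreated KO and 377, 325 and 278 CPM in copper-treated KO replicates. All wild type untreated libraries were above all KO untreated ones, and all KO copper libraries were above all wild type copper ones, so the order of the lines turned with copper. The rise was 2.19 ± 0.30 SE in wild type cells and 5.81 ± 0.37 SE in KO cells, a difference of 3.62 ± 0.45 SE, adjusted p = 0.00374.

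MAFF, a small MAF transcription factor induced by stress, also rose in both lines. MAFF stood at 16.9, 23.5 and 21.9 CPM in untreated wild type replicates 1 to 3, 71.5, 77.6 and 84.8 CPM in copper-treated wild type, 1.39, 5.12 and 3.97 CPM in untreated KO and 88.7, 88.3 and 94.4 CPM in copper-treated KO replicates. In copper the lines were close, and the untreated KO libraries were the lowest. The difference was 2.89 ± 0.39 SE, adjusted p = 0.00659. ING1, a chromatin reader and growth inhibitor, followed the pattern of GADD45B. ING1 stood at 22.9, 21.7 and 22.2 CPM in untreated wild type replicates 1 to 3, 68.3, 66.2 and 60.8 CPM in copper-treated wild type, 9.70, 5.12 and 10.99 CPM in untreated KO and 176, 149.9 and 137 CPM in copper-treated KO replicates. Its 4 groups did not overlap, and its difference was 2.65 ± 0.32 SE, adjusted p = 0.00374. PFKFB3 makes the enzyme that sets the level of fructose 2,6-bisphosphate and so drives glycolysis. PFKFB3 stood at 7.91, 11.8 and 11.8 CPM in untreated wild type replicates 1 to 3, 21.4, 20.9 and 18.2 CPM in copper-treated wild type, 0.693, 1.02 and 2.44 CPM in untreated KO and 32.8, 30.6 and 32.2 CPM in copper-treated KO replicates. KO copper libraries were the highest and KO untreated ones the lowest, with a difference of 3.39 ± 0.45 SE, adjusted p = 0.00572.

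MT-TL1 is the mitochondrial gene of a leucine tRNA, at chrM:3230-3304 on the plus strand of GRCh38 (GENCODE v29). Its sequence is printed because it is the one non-coding member of the 13.
MT-TL1: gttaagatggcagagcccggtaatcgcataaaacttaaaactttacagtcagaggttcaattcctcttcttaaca
MT-TL1 stood at 661, 749 and 764 CPM in untreated wild type replicates 1 to 3, 1155, 1348 and 1342 CPM in copper-treated wild type, 128, 127 and 236 CPM in untreated KO and 1949, 1963 and 2055 CPM in copper-treated KO replicates. KO untreated libraries were below all others and KO copper libraries above all others. The rise was 0.85 ± 0.23 SE, adjusted p = 0.0275 in wild type cells and 3.73 ± 0.26 SE, adjusted p = 3.16e-06 in KO cells, and the difference 2.88 ± 0.33 SE, adjusted p = 0.00329. The gene lies between the large mitochondrial rRNA gene and MT-ND1 in a shared precursor and no source states whether counting used the strand, so reads of neighbouring RNA cannot be told apart from it.

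Chaperone genes of this pattern were BAG3, the HSP70 cochaperone of selective autophagy (1.81 ± 0.43 SE, adjusted p = 0.0409), DNAJB1 (1.88 ± 0.47 SE, adjusted p = 0.0447) and DNAJB4 (2.32 ± 0.53 SE, adjusted p = 0.0393), both HSP40 cochaperones. DNAJB1 stood at 126, 136 and 117 CPM in untreated wild type replicates 1 to 3, 786, 650.5 and 650.3 CPM in copper-treated wild type, 122, 109.6 and 316 CPM in untreated KO and 3983, 3290 and 2962 CPM in copper-treated KO replicates. All KO copper libraries were above all wild type copper ones, and KO untreated replicate 3 was above the other untreated libraries. MAFG, partner of NRF2 on DNA (2.95 ± 0.54 SE, adjusted p = 0.0249), DDIT3, the stress factor CHOP (1.91 ± 0.45 SE, adjusted p = 0.0403), HERPUD1, which serves degradation of proteins from the endoplasmic reticulum (2.27 ± 0.59 SE, adjusted p = 0.0488), the apoptosis inhibitor BIRC3 (1.85 ± 0.46 SE, adjusted p = 0.0444) and the fatty acid elongase ELOVL5 (1.57 ± 0.39 SE, adjusted p = 0.0440) shared it. Without KO untreated replicates 1 and 2 these 8 genes had differences of 1.15, 1.08, 1.76, 2.15, 1.18, 1.31, 1.46 and 1.01 in that order, and only MAFG was called there.

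SNAI1, a repressor of epithelial genes, and ROBO4, a receptor gene of endothelial cells, had few counts in untreated KO cells. SNAI1 held 3 counts there and 444 in KO copper, a ratio of pooled CPM of 109 (exact 95% counting interval 37.2 to 532.5). In wild type cells it rose by 2.10 ± 0.56 SE, adjusted p = 0.0255, and the difference was 4.61 ± 1.02 SE, adjusted p = 0.0380. All 3 counts were in KO untreated replicate 1, and the fitted value was 8.20 in the 10-library fit and 8.03 in the 9-library fit, with no untreated KO count left in either. ROBO4 held 1 count untreated and 29 in copper in KO cells, a ratio of 21.4 (3.55 to 875), and its wild type libraries lay between 12.6 and 14.9 CPM in both treatments. Its difference was 4.10 ± 0.68 SE, adjusted p = 0.0190 (3.43 and not called in the 10-library fit), and KO copper libraries stayed below every wild type library. Also of this pattern, and chosen after their values were seen, were ANKRD1, IL11 and TUBA4A. ANKRD1 stood at 102, 115 and 94.6 CPM in untreated wild type replicates 1 to 3, 239.6, 229 and 262 CPM in copper-treated wild type, 101, 94.2 and 134 CPM in untreated KO and 747, 705 and 698 CPM in copper-treated KO replicates. ANKRD1 rose in both lines from overlapping untreated levels, and KO copper libraries were far above the rest (1.57 ± 0.26 SE, adjusted p = 0.0176). The cytokine gene IL11 had a difference of 3.13 ± 0.60 SE, adjusted p = 0.0305, and the tubulin gene TUBA4A one of 2.18 ± 0.33 SE, adjusted p = 0.0114. Of these, the 10-library fit called ANKRD1 and TUBA4A and not IL11 (2.40).

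At 120 genes both estimates were below 0 and copper lowered KO cells more. The fall was called in KO cells alone at 101 of them and in both lines at 19. KLB encodes beta-klotho, the coreceptor for the liver-acting hormones FGF19 and FGF21. KLB stood at 126, 110.5 and 118 CPM in untreated wild type replicates 1 to 3, 52.3, 47.1 and 43.8 CPM in copper-treated wild type, 154, 183 and 119.9 CPM in untreated KO and 6.05, 4.61 and 8.36 CPM in copper-treated KO replicates. Untreated lines overlapped, and KO copper libraries were below all others without overlap. KLB fell in both lines (-1.28 ± 0.23 SE in wild type and -4.47 ± 0.27 SE in KO cells), with a difference of -3.18 ± 0.35 SE and an adjusted p of 0.00262. F7, the gene of coagulation factor VII made by hepatocytes, differed by -2.91 ± 0.36 SE, adjusted p = 0.00374. F7 stood at 34.8, 34.0 and 29.5 CPM in untreated wild type replicates 1 to 3, 33.6, 24.8 and 24.8 CPM in copper-treated wild type, 41.6, 41.0 and 29.6 CPM in untreated KO and 3.92, 3.35 and 4.38 CPM in copper-treated KO replicates. The other 3 groups overlapped and KO copper was below them all. FAM20C, the kinase of secreted proteins, differed by -2.64 ± 0.33 SE, adjusted p = 0.00374. FAM20C stood at 79.3, 72.6 and 78.6 CPM in untreated wild type replicates 1 to 3, 59.2, 52.7 and 49.6 CPM in copper-treated wild type, 182, 123 and 111 CPM in untreated KO and 16.4, 11.7 and 15.9 CPM in copper-treated KO replicates. Its KO libraries were highest untreated and lowest in copper.

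RAB11FIP4, a Rab11 effector, fell in both lines and more in KO cells (-2.02 ± 0.30 SE, adjusted p = 0.0116). RAB11FIP4 stood at 101, 102 and 106 CPM in untreated wild type replicates 1 to 3, 48.0, 34.0 and 39.5 CPM in copper-treated wild type, 236, 201 and 161 CPM in untreated KO and 17.1, 19.7 and 17.9 CPM in copper-treated KO replicates. Its 4 groups did not overlap. PAQR8, a membrane progestin receptor gene, differed by -2.97 ± 0.48 SE, adjusted p = 0.0173, and PNPLA3, the lipid droplet protein whose common variant is linked to fatty liver, by -3.10 ± 0.59 SE, adjusted p = 0.0300. PNPLA3 stood at 78.0, 76.3 and 80.9 CPM in untreated wild type replicates 1 to 3, 57.6, 23.1 and 28.7 CPM in copper-treated wild type, 163, 182 and 67.4 CPM in untreated KO and 6.77, 6.70 and 7.56 CPM in copper-treated KO replicates. KO untreated replicate 3 was below the wild type untreated libraries where replicates 1 and 2 were above them, and all KO copper libraries were below all wild type copper ones. The lipid genes GPAM (-1.21 ± 0.26 SE, adjusted p = 0.0365) and DGAT1 (-1.95 ± 0.45 SE, adjusted p = 0.0397), whose enzymes open and close triglyceride synthesis, shared the pattern. So did the fibrinogen genes FGA (-1.19 ± 0.28 SE, adjusted p = 0.0393) and FGG (-1.53 ± 0.34 SE, adjusted p = 0.0384), the bile phospholipid transporter ABCB4 (-2.69 ± 0.60 SE, adjusted p = 0.0380), and PNPLA7 (-3.89 ± 0.90 SE, adjusted p = 0.0393). Of these lipid, fibrinogen and transporter genes the 10-library fit called only FGA (-1.54), with PNPLA3 at -2.03, GPAM at -1.19, DGAT1 at -1.16, FGG at -1.08, ABCB4 at -1.20 and PNPLA7 at -1.75. NRTN, the neurotrophic factor neurturin, held 3 counts in KO copper and 57 in KO untreated, so that untreated was 25.7 times higher (8.36 to 128 by exact 95% counting interval), with a fitted difference of -4.69 ± 0.99 SE, adjusted p = 0.0343 (-3.27 and not called in the 10-library fit).

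Hepatocyte transcription factors were among these genes. RXRA, the partner of many nuclear receptors (-1.46 ± 0.30 SE, adjusted p = 0.0343), the pioneer factor FOXA1 (-1.57 ± 0.35 SE, adjusted p = 0.0387), PROX1 (-1.41 ± 0.30 SE, adjusted p = 0.0343) and ONECUT1, also called HNF6 (-4.07 ± 1.07 SE, adjusted p = 0.0494), fell in KO cells, while no wild type change of the 4 passed the test. RXRA stood at 163, 158 and 157 CPM in untreated wild type replicates 1 to 3, 132, 103 and 87.5 CPM in copper-treated wild type, 147, 173 and 122 CPM in untreated KO and 32.4, 31.8 and 37.8 CPM in copper-treated KO replicates. Untreated lines overlapped, and KO copper libraries were below all wild type copper ones. ONECUT1 stood at 16.3, 10.4 and 16.9 CPM in untreated wild type replicates 1 to 3, 10.7, 6.10 and 3.87 CPM in copper-treated wild type, 94.9, 64.5 and 10.99 CPM in untreated KO and 1.78, 0.837 and 1.59 CPM in copper-treated KO replicates. Its KO untreated replicate 3 lay within the wild type untreated range, and without KO untreated replicates 1 and 2 the difference was -1.67. The p53 targets ZMAT3 (-1.44 ± 0.33 SE, adjusted p = 0.0387) and SESN1 (-1.66 ± 0.42 SE, adjusted p = 0.0454) had the same signs. None of these 6 factors and targets was called in the 10-library fit, which put RXRA at -1.17, FOXA1 at -1.35, PROX1 at -1.002, ONECUT1 at -1.67, ZMAT3 at -0.96 and SESN1 at -0.98. In the 9-library fit all but ONECUT1 were called.

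The largest set, 276 genes, had KO estimates below 0 and wild type estimates above 0. The copper effect was called in KO cells alone at 197, in wild type cells alone at 48, in both at 22 and in neither at 9. TBX2, a T-box repressor, had both called. TBX2 stood at 5.27, 4.96 and 7.86 CPM in untreated wild type replicates 1 to 3, 13.3, 12.6 and 11.2 CPM in copper-treated wild type, 38.1, 38.9 and 33.9 CPM in untreated KO and 6.77, 10.5 and 9.95 CPM in copper-treated KO replicates. KO untreated libraries were above all others, and wild type untreated overlapped KO copper at the low end. TBX2 rose in wild type cells (1.06 ± 0.27 SE, adjusted p = 0.0212) and fell in KO cells (-1.91 ± 0.26 SE, adjusted p = 0.000322), a difference of -2.97 ± 0.38 SE, adjusted p = 0.00374. PDE4C, a cyclic AMP phosphodiesterase, differed by -3.81 ± 0.47 SE, adjusted p = 0.00374. PDE4C stood at 24.0, 13.6 and 16.9 CPM in untreated wild type replicates 1 to 3, 24.6, 21.8 and 20.5 CPM in copper-treated wild type, 70.7, 65.5 and 50.0 CPM in untreated KO and 4.27, 2.93 and 7.96 CPM in copper-treated KO replicates. The wild type groups overlapped, KO untreated was above them and KO copper below.

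FOXQ1, a forkhead factor, rose in wild type cells (0.94 ± 0.20 SE) and fell in KO cells (-1.03 ± 0.20 SE), with a difference of -1.96 ± 0.28 SE, adjusted p = 0.00961. FOXQ1 stood at 213, 201 and 209 CPM in untreated wild type replicates 1 to 3, 463, 315 and 391 CPM in copper-treated wild type, 508, 411 and 398 CPM in untreated KO and 194, 202 and 202 CPM in copper-treated KO replicates. Levels in KO copper were within or below those of untreated wild type cells. SPON2, a secreted matrix protein, differed by -1.92 ± 0.28 SE, adjusted p = 0.0112, and SPP1, osteopontin, by -1.30 ± 0.24 SE, adjusted p = 0.0249. SPP1 stood at 338, 366 and 361 CPM in untreated wild type replicates 1 to 3, 482, 530.3 and 571 CPM in copper-treated wild type, 669, 562 and 604 CPM in untreated KO and 338, 349 and 353 CPM in copper-treated KO replicates. Wild type copper lay above wild type untreated, KO copper overlapped wild type untreated, and KO untreated was highest or overlapped wild type copper. GPX2, a selenium-dependent glutathione peroxidase and NRF2 target, differed by -2.77 ± 0.49 SE, adjusted p = 0.0228. GPX2 stood at 198, 211 and 224 CPM in untreated wild type replicates 1 to 3, 745, 432 and 383 CPM in copper-treated wild type, 1048, 773 and 419.6 CPM in untreated KO and 220.5, 256 and 295 CPM in copper-treated KO replicates. It rose in wild type cells (1.33 ± 0.34 SE, adjusted p = 0.0225) and fell in KO cells (-1.44 ± 0.35 SE, adjusted p = 0.00776). IL21R, the interleukin-21 receptor, had the largest negative fitted value, -6.00 ± 1.01 SE, adjusted p = 0.0190, with 2 counts in KO copper against 26 in KO untreated. Its KO untreated level was 17.6 times its KO copper level (4.40 to 153 by exact 95% counting interval), and the 10-library fit gave -5.43, not called.

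Others with both effects called were chosen after their values were seen. INHBE, an activin subunit made by the liver, differed by -2.88 ± 0.46 SE, adjusted p = 0.0172. INHBE stood at 56.7, 52.0 and 69.1 CPM in untreated wild type replicates 1 to 3, 220.4, 162 and 166 CPM in copper-treated wild type, 76.9, 77.8 and 31.1 CPM in untreated KO and 23.1, 25.5 and 24.7 CPM in copper-treated KO replicates. Wild type copper libraries were above all others, and KO copper libraries below all others. SPINK1, a trypsin inhibitor (-3.23 ± 0.50 SE, adjusted p = 0.0151), SOX4, a developmental factor (-3.24 ± 0.56 SE, adjusted p = 0.0227), and IFITM3, an interferon-induced membrane protein (-1.84 ± 0.36 SE, adjusted p = 0.0315), were likewise called. Without KO untreated replicates 1 and 2 all of these moved nearer 0, INHBE to -1.87, SPINK1 to -2.52, SOX4 to -1.72 and IFITM3 to -1.36.

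ANGPTL8, the insulin-responsive regulator of lipoprotein lipase (-3.92 ± 0.64 SE, adjusted p = 0.0177), fell in KO cells alone. ANGPTL8 stood at 196, 220.4 and 208 CPM in untreated wild type replicates 1 to 3, 417, 214 and 188 CPM in copper-treated wild type, 117, 123 and 44.5 CPM in untreated KO and 10.7, 7.95 and 4.38 CPM in copper-treated KO replicates. KO libraries were below wild type ones untreated, and in copper the gap widened to more than an order of magnitude. Further members with the KO fall called and the wild type effect not called included BRCA1 (-2.87 ± 0.59 SE, adjusted p = 0.0343), MCM5, a subunit of the replicative helicase (-2.74 ± 0.61 SE, adjusted p = 0.0380), BCL2L1, which encodes BCL-XL (-2.50 ± 0.59 SE, adjusted p = 0.0403), the sterol synthesis genes NSDHL (-2.48 ± 0.60 SE, adjusted p = 0.0419) and MVD (-2.27 ± 0.57 SE, adjusted p = 0.0454), and RPS27L. BCL2L1 stood at 439, 445 and 449 CPM in untreated wild type replicates 1 to 3, 787, 524 and 614 CPM in copper-treated wild type, 1909, 1997 and 492 CPM in untreated KO and 361, 357 and 358 CPM in copper-treated KO replicates. KO untreated replicates 1 and 2 were about 4 times replicate 3, which lay near the wild type untreated level. Without replicates 1 and 2 the differences of these 6 genes were -1.28, -1.26, -0.88, -1.01, -1.16 and -1.04 in that order, and none was called. Replication-dependent histone genes, whose transcripts mostly lack poly(A) tails, summed to 6137 and 5254 CPM in KO untreated replicates 1 and 2 and to 808 to 4319 CPM in the other 10 libraries. The part of those libraries in the calls was not tested.

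**Figure D4:**
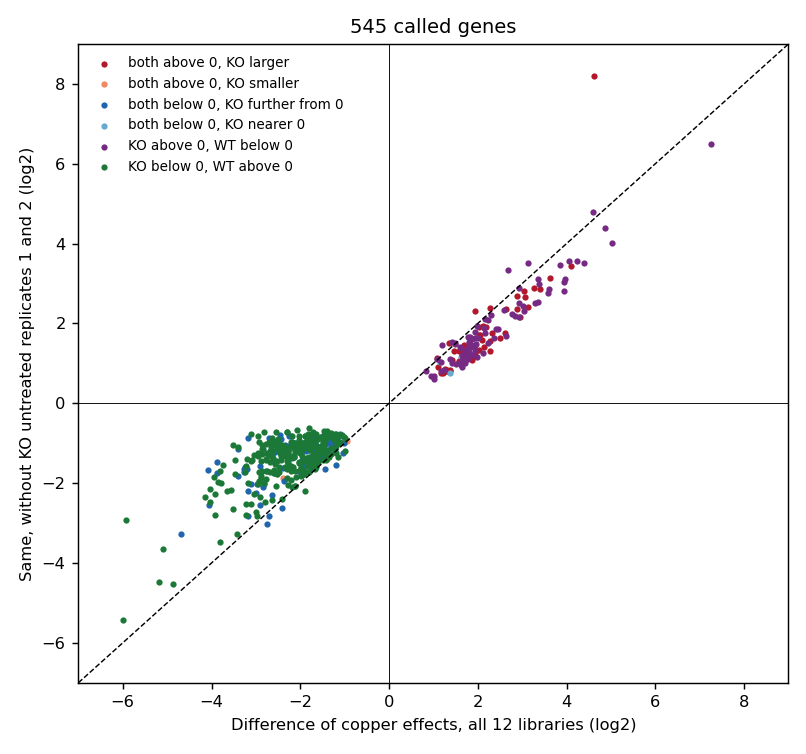
Difference of copper effects of the 545 called genes with all 12 libraries (x axis, log2) against the same without KO untreated replicates 1 and 2 (y axis, log2), coloured by the signs of the copper effects; the dashed line marks equal values. All 545 keep their sign, and 394 of 406 negative and 126 of 139 positive values are nearer 0 without those libraries.

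Only 14 genes had copper estimates of the same sign that were nearer 0 in KO cells. Genes with estimates of opposite sign whose KO effect was not called are not counted here. EGR1, an immediate early transcription factor, rose in both lines. EGR1 stood at 5.27, 6.27 and 5.33 CPM in untreated wild type replicates 1 to 3, 166, 173 and 153 CPM in copper-treated wild type, 5.54, 4.10 and 4.88 CPM in untreated KO and 45.2, 54.0 and 51.0 CPM in copper-treated KO replicates. Untreated lines overlapped, and all wild type copper libraries were about 3 times the KO copper ones. The rise was 4.88 ± 0.21 SE in wild type and 3.47 ± 0.22 SE in KO cells, a difference of -1.41 ± 0.29 SE, adjusted p = 0.0343. JDP2, an AP-1 repressor that responds to amino acid shortage, rose in both lines as well (-1.23 ± 0.30 SE, adjusted p = 0.0438). TRIM38, a ubiquitin ligase of antiviral signalling (-2.00 ± 0.32 SE, adjusted p = 0.0172), the small nucleolar RNA host gene SNHG9 (-2.39 ± 0.40 SE, adjusted p = 0.0190), ADM2, a peptide hormone gene induced by the integrated stress response (-2.52 ± 0.52 SE, adjusted p = 0.0343), and MT-CO1, a mitochondrially encoded subunit of cytochrome c oxidase (-1.73 ± 0.38 SE, adjusted p = 0.0379), rose in wild type cells, and their KO change did not pass the test. TRIM38 stood at 22.7, 18.8 and 21.6 CPM in untreated wild type replicates 1 to 3, 97.7, 86.7 and 70.1 CPM in copper-treated wild type, 43.0, 32.8 and 30.8 CPM in untreated KO and 29.2, 39.4 and 32.2 CPM in copper-treated KO replicates. KO copper overlapped KO untreated, whereas wild type copper was above every other library. The 4 genes with falls called in wild type cells alone were CDKN3, a cell cycle phosphatase (1.14 ± 0.29 SE, adjusted p = 0.0467), CEMIP, a hyaluronan-binding protein (1.62 ± 0.36 SE, adjusted p = 0.0380), FNIP2, a folliculin partner in nutrient sensing (1.84 ± 0.44 SE, adjusted p = 0.0418), and PDLIM2, a PDZ and LIM domain protein (1.38 ± 0.36 SE, adjusted p = 0.0473). Of these 10 genes the 10-library fit called TRIM38 and SNHG9 alone, with EGR1 at -1.40, JDP2 at -1.01, ADM2 at -1.76, MT-CO1 at -1.07, CDKN3 at 1.03, CEMIP at 1.16, FNIP2 at 1.23 and PDLIM2 at 0.76.

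The gene lists were chosen with earlier results of these data known, and each is described by its counts and its median beside those of all tested genes, of which 1.26% were positive and 3.67% negative with a median of 0.02. In 11 lists no member was called. These calls also depended on the libraries that stood apart, so the counts of the 10-library and 9-library fits are given with them. The background for those counts is the share of all tested genes called in the same fit, given above where each fit is introduced. The shares of 1.26% and 3.67% do not apply to them.

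Copper handling showed no called difference. All 10 tested metallothioneins rose in KO cells, where 15.2% of all tested genes rose, and 9 of 10 rose in wild type cells, where 8.23% did. The median rises were 5.84 in KO and 6.10 in wild type cells. The difference of copper effects was called at 0 of 10 (median difference 1.002), which does not show that the effects or the levels were equal. That median was -0.13 in the 10-library fit, with 0 of 10 called, and -0.46 in the 9-library fit, where MT1E and MT1G were called with negative values. MT1G had a difference of 0.88 ± 0.87 SE, adjusted p = 0.480 with all libraries, -0.34 in the 10-library fit and -0.69 in the 9-library fit (adjusted p = 0.00631). MT1X stood at 5.01, 3.13 and 3.65 CPM in untreated wild type replicates 1 to 3, 274, 287 and 272 CPM in copper-treated wild type, 5.54, 1.02 and 4.27 CPM in untreated KO and 141, 145 and 142 CPM in copper-treated KO replicates. Both lines rose from a few CPM, and wild type copper libraries were above KO copper ones (-0.84 ± 0.43 SE, adjusted p = 0.184, 95% interval -1.77 to 0.09). MT2A had a difference of 2.10 ± 1.09 SE, adjusted p = 0.191 (95% interval -0.26 to 4.46), and its KO untreated replicates spread from 29.7 to 520.0 CPM. It was 0.72 and 0.32 in the 10-library and 9-library fits, neither called. Metallothioneins are near-identical copies, so counts of single members are uncertain. None of 14 copper transport and delivery genes was called (median 0.01). Copper importer SLC31A1 had a difference of 0.05 ± 0.28 SE (95% interval -0.56 to 0.66). Of 18 zinc transporter genes 1 was negative, SLC39A7 (-2.11 ± 0.53 SE, adjusted p = 0.0454), and the list median was 0.78. None of 16 iron handling genes was called. The 10-library fit called none of the copper, zinc and iron genes, with SLC39A7 at -0.98 and SLC31A1 at -0.35, and the 9-library fit called 1 copper transport and delivery gene, positive.

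Of 26 heat shock genes 3 were positive (BAG3, DNAJB1 and DNAJB4, above) and none negative, with a median of 0.56. CRYAB, a small heat shock protein, rose in both lines from levels near the counting floor. CRYAB stood at 0.527, 0.522 and 0.561 CPM in untreated wild type replicates 1 to 3, 42.7, 37.5 and 34.5 CPM in copper-treated wild type, 1.39, 1.02 and 0.915 CPM in untreated KO and 189, 176 and 174 CPM in copper-treated KO replicates. All KO copper libraries were above all wild type copper ones, and the difference was not called (1.41 ± 0.51 SE, adjusted p = 0.221, 95% interval -0.31 to 3.14). HSPA6, a stress-induced HSP70, had 0 counts in wild type untreated libraries, so its rise in wild type cells was at least 174.5-fold against 3 counts over the group. In KO cells it went from 1 count to 851, a ratio of 629 (exact 95% counting interval 113 to 24870). HSPH1, the HSP110 cochaperone, had a difference of -1.005 ± 0.34 SE, adjusted p = 0.0809. No member of the list was called in the 10-library fit, and 6 were in the 9-library fit, all positive.

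Of 33 NRF2 targets 1 was positive (MAFG) and 1 negative (GPX2), with a median of 0.10. HMOX1, which degrades haem, rose in both lines (4.20 ± 0.35 SE, adjusted p = 2.72e-05 in wild type and 2.71 ± 0.33 SE, adjusted p = 0.000152 in KO cells). HMOX1 stood at 259, 264 and 296 CPM in untreated wild type replicates 1 to 3, 6385, 4409 and 3935 CPM in copper-treated wild type, 1370, 1173 and 617 CPM in untreated KO and 6306, 6450 and 6550 CPM in copper-treated KO replicates. Untreated KO libraries were already above wild type untreated ones, the lines overlapped in copper, and the difference missed the threshold (-1.49 ± 0.44 SE, adjusted p = 0.0602, 95% interval -2.44 to -0.54). It was -0.68 in the 10-library fit, not called, and -0.43 in the 9-library fit, called (adjusted p = 0.0427). The cystine transporter gene SLC7A11 had a difference of -0.02 ± 0.31 SE (95% interval -0.69 to 0.65), and TXNRD1, thioredoxin reductase, one of -0.31 ± 0.26 SE (-0.86 to 0.25). MAFG and GPX2 were also the calls of this list in the 10-library fit, and the 9-library fit called 3 positive and 4 negative members.

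Of 28 genes of the integrated stress response 1 was positive (DDIT3) and 3 negative, namely NUPR1 (-1.64 ± 0.30 SE, adjusted p = 0.0265), JDP2 and the alanyl-tRNA synthetase AARS1 (-1.10 ± 0.28 SE, adjusted p = 0.0473), with a median of 0.38. ATF3 had a difference of 0.97 ± 0.48 SE, adjusted p = 0.179 and the asparagine synthetase gene ASNS one of 1.38 ± 0.45 SE, adjusted p = 0.0770. Serine and one-carbon synthesis had 6 of 18 members negative and none positive, although its median was 0.26. Among them were PSPH (-1.61 ± 0.28 SE, adjusted p = 0.0230) and PHGDH (-1.90 ± 0.44 SE, adjusted p = 0.0397) of serine synthesis, ALDH1L2 (-2.68 ± 0.68 SE, adjusted p = 0.0454) of folate metabolism, CBS (-1.13 ± 0.26 SE, adjusted p = 0.0393) of transsulfuration, and MAT1A, the liver enzyme that makes S-adenosylmethionine. PSPH stood at 78.3, 75.5 and 69.3 CPM in untreated wild type replicates 1 to 3, 80.1, 71.9 and 67.4 CPM in copper-treated wild type, 112, 78.8 and 86.0 CPM in untreated KO and 24.9, 26.0 and 33.4 CPM in copper-treated KO replicates. Wild type libraries overlapped between treatments, and KO copper libraries were below all others. None of the 6 calls held in all fits with a library left out. The 10-library fit called PSPH alone of this list, which then had a median of -0.23, and NUPR1 alone of the integrated stress response, with AARS1 at -0.97, PHGDH at -1.09, ALDH1L2 at -1.72 and CBS at -0.998. In the 9-library fit 5 negative and no positive members of the serine list were called, and 5 negative and 4 positive of the stress response.

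Of 28 immediate early genes 4 were positive (CCN2, CCN1, GADD45B and MAFF) and 1 negative (EGR1), with a median of 1.34. JUN rose in both lines with a difference of 0.33 ± 0.24 SE (95% interval -0.20 to 0.86). FOS held 2 counts in KO untreated and 279 in KO copper, a ratio of 103 (exact 95% counting interval 28.3 to 856), and was not called (adjusted p = 0.380). Dual specificity phosphatases had 1 of 12 positive (DUSP1), and NF-kappaB targets 2 of 16 (CCL20 and BIRC3). The p53 targets had 4 of 25 negative, XPC (-1.28 ± 0.26 SE, adjusted p = 0.0316), ZMAT3, TP53INP1 (-0.997 ± 0.24 SE, adjusted p = 0.0427) and SESN1, and none positive, and the BCL2 family 1 of 16 negative (BCL2L1). In the 10-library fit 3 immediate early genes were called, all positive, 1 p53 target, TP53INP1, and no phosphatase, NF-kappaB target or BCL2 family member. The 9-library fit called 9 p53 targets, all negative.

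Autophagy is named in the title of the study. None of 51 autophagosome and cargo receptor genes was called, with a median of 0.23. The 10-library fit called none either, and the 9-library fit called 7 positive and 1 negative. MAP1LC3B stood at 59.8, 52.2 and 50.5 CPM in untreated wild type replicates 1 to 3, 73.1, 146 and 179.7 CPM in copper-treated wild type, 21.5, 31.7 and 68.0 CPM in untreated KO and 373, 346 and 311 CPM in copper-treated KO replicates. MAP1LC3B, the LC3 protein of autophagosome membranes, was higher in every KO copper library than in any other, and its difference was 1.87 ± 0.52 SE, adjusted p = 0.0537 (95% interval 0.75 to 2.99). It was 1.14 in the 10-library fit, not called, and 0.86 in the 9-library fit, called (adjusted p = 0.00408). GABARAPL1, of the same protein family, had a difference of 1.37 ± 0.39 SE, adjusted p = 0.0560 (0.53 to 2.21), and it was 0.66 in the 9-library fit, called (adjusted p = 0.0227). SQSTM1 stood at 151, 149 and 165 CPM in untreated wild type replicates 1 to 3, 1583, 1100 and 906 CPM in copper-treated wild type, 808, 744 and 299 CPM in untreated KO and 1370, 1624 and 1592 CPM in copper-treated KO replicates. SQSTM1, the cargo receptor p62, rose in both lines, and its difference of -1.58 ± 0.49 SE, adjusted p = 0.0686 (-2.64 to -0.51) became -0.49 without those 2 libraries. TFEB, the master regulator of lysosomal genes, had a difference of -2.40 ± 0.67 SE, adjusted p = 0.0541 (-3.85 to -0.95) at levels of 0.712 to 18.7 CPM. Of 57 TFEB family and lysosome genes 2 were positive (FNIP2 and ATP6V1G1), with a median of 0.81. No proteasome gene of 45 was called (median 0.44), and PSMD12 rose in both lines with a difference of 0.43 ± 0.23 SE (-0.07 to 0.92). HERPUD1 was the only called member of 27 ubiquitin genes and of 34 genes of folding in the endoplasmic reticulum. The 10-library fit called no member of the lysosome, proteasome, ubiquitin and folding lists, and the 9-library fit called 7, 3, 5 and 8 positive members and 1, 0, 0 and 1 negative ones.

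Mitochondrially encoded genes had 2 of 15 negative, MT-CO1 and MT-CO3 (-2.50 ± 0.60 SE, adjusted p = 0.0416), with a median of -0.58. MT-CO3 stood at 2268, 1753 and 2586 CPM in untreated wild type replicates 1 to 3, 6533, 8073 and 5817 CPM in copper-treated wild type, 13820, 26530 and 6205 CPM in untreated KO and 7466, 7921 and 9068 CPM in copper-treated KO replicates. KO untreated replicates 1 and 2 were above all others. No nuclear-encoded respiratory chain gene of 78 was called (median 0.96), and none of 17 lipoylation and cuproptosis genes (median 0.05). Cytosolic ribosomal proteins had the highest list median, 1.37, with 1 of 80 negative, RPS27L, a stress-induced paralog (-2.16 ± 0.56 SE, adjusted p = 0.0481). Their summed level was lowest in KO untreated replicates 1 and 2, as given above. Histone genes had the lowest median, -1.30, with 1 of 11 negative. In the 10-library fit the ribosomal, respiratory chain and histone medians were 0.54, 0.33 and -0.52, and no gene of these lists or of the mitochondrially encoded and lipoylation lists was called. The 9-library fit called 9 of 15 mitochondrially encoded genes, all negative, and 12 ribosomal protein genes positive and 1 negative.

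Coagulation, complement and acute phase genes had 3 of 31 negative (F7, FGA and FGG) and none positive (median -0.51). Hepatocyte transcription factors had 5 of 26 negative, RXRA, PROX1, FOXA1, ONECUT1 and the xenobiotic receptor NR1I2 (-2.30 ± 0.53 SE, adjusted p = 0.0393), and none positive (median -0.24). Drug and bile acid genes had 2 of 17 negative, ABCB4 and SLC27A5 (-2.78 ± 0.67 SE, adjusted p = 0.0416). Cholesterol synthesis and SREBP2 targets had 3 of 28 negative, NSDHL, MVD and the intestinal-type sterol transporter NPC1L1 (-1.77 ± 0.44 SE, adjusted p = 0.0446). Fatty acid and triglyceride synthesis had 4 of 25 negative (PNPLA3, GPAM, DGAT1 and AGPAT2, -2.16 ± 0.48 SE, adjusted p = 0.0380) and 1 positive (ELOVL5). No plasma carrier or apolipoprotein gene of 25, no fatty acid oxidation gene of 29 and none of the 12 hepatocyte markers was called. ALB had a difference of -0.28 ± 0.27 SE (95% interval -0.87 to 0.31), AFP one of 1.001 ± 0.45 SE (0.02 to 1.98) and HAMP, the iron hormone hepcidin, one of 0.75 ± 0.89 SE (-1.18 to 2.69). Of these liver lists the 10-library fit called 2 coagulation genes, F7 and FGA, and no other member, with NR1I2 at -1.87, SLC27A5 at -1.38, NPC1L1 at -1.18 and AGPAT2 at -1.59. The 9-library fit called 6 coagulation, 8 transcription factor, 3 drug and bile acid, 7 cholesterol and 7 fatty acid synthesis genes negative, and 0, 1, 0, 1 and 1 positive. It also called 3 hepatocyte markers, among them ALB (-0.46, adjusted p = 0.0257).

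Glycolysis and hypoxia targets had 5 of 39 positive (PFKFB3, ANKRD37, SLC2A3, SLC2A1 and ADM) and 2 negative, ALDOC (-1.35 ± 0.31 SE, adjusted p = 0.0397) and HIF1A, with a median of 0.50. The keratin and biliary progenitor list had 5 of 17 positive, among them EDN1, CCN2, SNAI1 and CCN1, and 1 negative, SPP1, while its median was -0.24. None of the 6 called genes is a keratin. Mitosis had 1 of 47 positive (CENPE, median 0.76), and replication 2 of 52 negative (BRCA1 and MCM5, median 0.30). Of the 6 tested markers of other cell types none was called (median -0.15). The 10-library fit called 4 positive glycolysis and hypoxia genes, 4 positive and 2 negative of the keratin list, whose median was then 0.23, CENPE of mitosis and no replication gene.

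**Figure D5:**
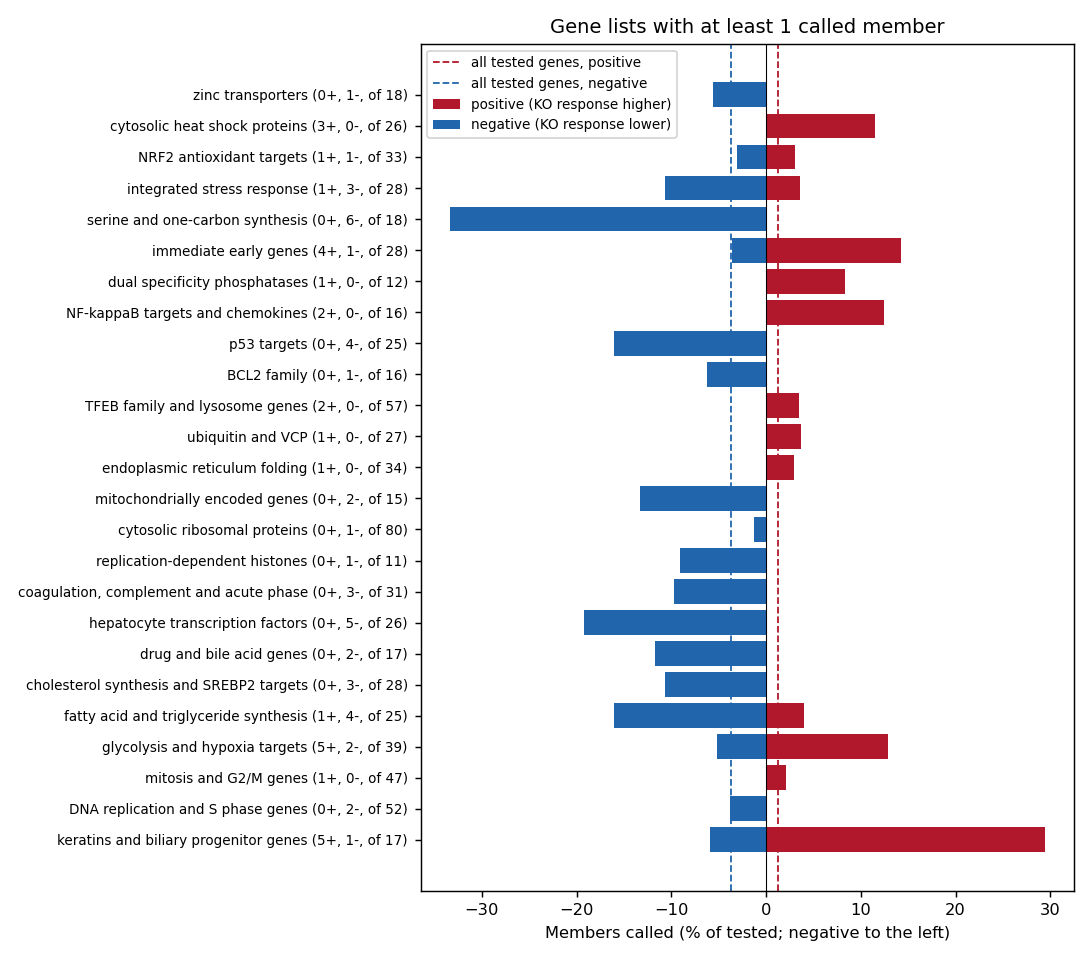
Share of the tested members of each list that were called in the difference of copper effects (x axis, percent; positive to the right in red, negative to the left in blue), for the 25 lists with at least 1 call (y axis, with counts); dashed lines are the shares over all tested genes, 1.26% and 3.67%. Serine and one-carbon synthesis has the largest negative share, 6 of 18, and the keratin and biliary progenitor list the largest positive share, 5 of 17.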

How the data were processed

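All 12 libraries of QuantSeq 3′ mRNA sequencing were used, 3 in each of 4 groups taken from the titles. Inputs of 100 ng RNA gave fragments of 300 bp with single-end reads of 75 bp, per the labels' protocols. STAR 2.3.0, HTSeq and hg19 are named in the submitters' processing notes, and no source used here gives annotation release, strand or filters. The authors deposited raw counts per gene ID without normalization. Reads near the 3′ end make levels little dependent on transcript length, and without molecular identifiers intervals cover counting error only.

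Symbols for 45776 of 47634 IDs, holding 99.5% of counts, came from the gene name table and GENCODE v29, used for names alone because the build differs. Genes passing filterByExpr (11051) were scaled by TMM and tested with edgeR 4.0.16 in R 4.3.3 (robust quasi-likelihood fit, 4 group means, Benjamini-Hochberg adjustment over all tested genes, called at 0.05); the biological coefficient of variation was 29.1%. SE is the log2 value divided by the square root of F, and 95% intervals use the t distribution of the fit. Ratios with at most 3 counts in a group are of pooled CPM with exact binomial intervals, computed with scipy 1.17.1. On simulated counts of 10885 genes, 0% of 2-fold and 24% of 4-fold differences of copper effects were recovered, so most smaller differences would be missed. In that simulation 2 unchanged genes were called. Its counts were drawn gene by gene, without the shifts of whole libraries seen here, so it does not give the rate of false calls in these data. Totals of 976658 to 3829151 counts limit genes of a few CPM most.

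Members and lists were chosen with earlier results of these data known. Genes named are the 12 largest values in each direction, the 5 smallest p of each sign pattern, up to 5 called members of each of 36 lists, all with a mean of at least 5 CPM, and a set of copper, stress and liver genes named whether called or not; those chosen after seeing values are marked, and a few genes are not reported here. Alternatives were other scaling, DESeq2 1.42.0, limma 3.58.1 voom, filters, thinning to 976658 counts, replicate blocks and leaving out libraries. Leaving out KO untreated replicates 1 and 2 together was added after seeing the data. Promoter letters came from the RefSeq table of build GRCh38.p14.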

Additional observations from a re-analysis of the deposited data

Results flagged for a closer look

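The interaction test called 545 genes, at a threshold that limits the expected share of false calls and does not establish each gene. The values given here are those of the 13 genes also called with each library left out in turn. The difference of copper effects, KO minus wild type, was positive for EDN1 (7.26, a fitted value that rests on 2 counts in KO untreated), CCN2 (4.06), GADD45B (3.62), PFKFB3 (3.39), ANKRD37 (3.13), MAFF (2.89), MT-TL1 (2.88) and ING1 (2.65). For ANKRD37 the copper effect was a called fall in wild type cells and was not called in KO cells. The difference was negative for PDE4C (-3.81), KLB (-3.18), TBX2 (-2.97), F7 (-2.91) and FAM20C (-2.64). All values are differences of log2 fold changes over 3 libraries a group.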

How the results depend on the processing

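All 545 genes had the same sign in each of 23 alternatives in which they were tested, and the number called moved. Sign patterns follow in 1 order throughout: both above 0 and larger in KO, both above 0 and smaller in KO, both below 0 and further from 0 in KO, both below 0 and nearer 0 in KO, KO above and wild type below 0 and KO below and wild type above 0 (51, 10, 120, 4, 84 and 276 with edgeR on all libraries). DESeq2 called 552 positive and 1279 negative genes, split into 157, 56, 346, 24, 371 and 877. Limma voom called 70 positive and 93 negative genes, split into 27, 4, 33, 1, 42 and 56. Voom with sample quality weights, which gave KO untreated replicate 3 the lowest weight of 0.0657, called 2880 positive and 2564 negative genes, split into 765, 151, 936, 113, 2002 and 1477. The fit without a filter called 1058 positive and 1308 negative genes, split into 165, 38, 340, 51, 842 and 930. Relative log expression factors called 151 positive and 543 negative genes, split into 60, 18, 142, 4, 87 and 383. A mean of at least 5 CPM called 158 positive and 582 negative genes, split into 65, 22, 157, 6, 87 and 403. Thinning called 151 positive and 470 negative genes, split into 38, 12, 115, 3, 110 and 343. Leaving out the 3 libraries that stood apart called 452 positive and 598 negative genes, split into 177, 83, 267, 52, 223 and 248. Leaving out KO untreated replicates 1 and 2 called 37 positive and 65 negative genes, split into 16, 4, 25, 1, 20 and 36. Leaving out 1 library at a time gave 8 to 2936 positive and 5 to 2946 negative genes, with patterns of 5 to 793, 0 to 141, 3 to 791, 0 to 75, 3 to 2068, 2 to 2014. Positive calls were 25.5% of all calls, against 30.2% with DESeq2, 42.9% with voom, 52.9% with quality weights, 44.7% without a filter and 43.1% without the 3 libraries. Deviations from the group means correlated at -0.20 to 0.09 between same-numbered untreated and copper libraries of a line. Deviations of 3 libraries sum to 0 in each group, so these values cannot show whether replicate numbers mark shared cultures. A fit with the replicate number as a block called 34 positive and 79 negative genes, split into 13, 3, 24, 1, 20 and 52. The block within each genotype called 0 positive and 0 negative genes, 0 of each pattern, with 3293 at an unadjusted p under 0.05 by the same edgeR test. Of 2778 values of the 121 genes chosen by rule, 1634 kept their sign and their side of the threshold, 1064 fell short of it, 47 passed it newly and 33 changed sign. None of those 33 belonged to a gene called with all libraries, and they came from 7 of the 24 genes not called. Without the 3 libraries that stood apart the values turned to -0.545 for HAMP, 1.04 for HSPA6, -0.69 for MT1G (called there), -0.672 for SLC30A1, -0.296 for SLC31A1 and 0.318 for SLC7A11. Without KO untreated replicates 1 and 2 they turned to -0.256, 1.17, -0.342, -0.432, -0.353 and 0.196 in that order. Thinning turned CRYAB to -1.43, HSPA6 to 1.30, SLC31A1 to -0.0454 and SLC7A11 to 0.0932. SLC31A1 was -0.0163 with relative log expression factors, -0.0338 with DESeq2 and -0.000347 at a mean of at least 5 CPM, and SLC7A11 was 0.00118 with voom and 0.0305 with quality weights. With 1 library left out at a time, HSPA6 ran from -2.02 to 1.23, SLC31A1 from -0.135 to 0.176 and SLC7A11 from -0.261 to 0.122. The cause of these shifts was not tested. Depth limits genes of a few CPM, where 3 counts equal up to 3.07 CPM.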
